A study of Mus musculus with 9 samples.

Results

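Retinoid metabolism and signalling was followed through 9 genes in messenger RNA from mouse ears: Stra6, Rdh9, Rdh10, Dhrs9, Aldh1a2, Aldh1a3, Crabp2, Cyp26b1 and Rarg. They were chosen by name, with earlier results of these data known, as the rows of the gene count matrix whose Ensembl identifier maps to these symbols. All 9 were found among the 55401 features of the matrix. The study sequenced 9 libraries from the ears of C57 mice, in 3 groups of 3 libraries. The control group was given absolute ethanol. The second group was treated with MC903 (calcipotriol), a vitamin D analogue that inflames mouse skin in a manner used to model atopic dermatitis. The third group was treated with MC903 and with paeonol, a phenol from peony root bark, at 200 mg/kg. No group received paeonol alone, so its effect was read only on top of MC903. The labels name no genotype beyond the strain, and no age, sex, MC903 amount or duration, or vehicle of paeonol. Nor do the labels say that the 3 libraries of a group came from separate animals, so p-values rest on a spread between libraries that could be technical.

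Each library held 54.3 to 57.7 M estimated counts, and 21925 genes with enough counts were tested, all 9 retinoid genes among them. Levels are given in CPM, the count scaled to a common library size with TMM factors, and changes as log2 changes ± standard error from an edgeR quasi-likelihood fit of all 9 libraries, with calls made where the Benjamini-Hochberg adjusted p was under 0.05. The fit called 10259 genes in MC903 versus control, 6502 in MC903 with paeonol versus MC903 and 6765 in MC903 with paeonol versus control, so a call by itself was common. Scaling by library totals alone moved the median change over all genes on the log2 scale from -0.02 to -0.21 in MC903 versus control, and turned 5044 higher and 5215 lower calls into 3402 and 7224. In MC903 with paeonol versus control the same scaling shifted the median from -0.03 to -0.20, and 3578 higher and 3187 lower calls became 2155 and 5354. Keratinocyte markers were abundant, as the labelled tissue requires: the summed level of 7 basal keratinocyte genes was 14971 to 16757 CPM in control ears and 20034 to 21748 CPM in the other 6 libraries. The single genes did not all follow the sum. With MC903 2 were called higher and 3 lower, and 4 higher and 1 lower when paeonol was added. In paeonol against control 4 were called higher and 2 lower. These are bulk libraries, so fewer cells of a type and less RNA per cell cannot be told apart in any result given here.

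Retinoic acid is made from vitamin A in steps that cells can open or close separately. Retinol enters from its carrier protein, is stored as retinyl ester or oxidised to retinal by retinol dehydrogenases, and retinal is oxidised irreversibly to retinoic acid by the ALDH1A enzymes. Cellular binding proteins carry retinoic acid to nuclear receptors or to the CYP26 enzymes that inactivate it, and the receptors bind DNA as heterodimers of RAR and RXR. In skin the pathway governs how keratinocytes mature and how sebaceous glands and hair follicles are kept, and RARγ is the most abundant RAR of the epidermis.

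Among the genes named at the outset, those that bind, degrade and sense retinoic acid were the abundant ones, and most of those that make it were scarce. Per kilobase of exon, Rarg led in control ears at 46.5 ± 3.16 CPM per kilobase (SD, n = 3). Crabp2 at 22.8 ± 1.12 and Cyp26b1 at 22.3 ± 2.35 CPM per kilobase followed, with overlapping ranges. Rdh10 came next at 5.18 ± 0.152 CPM per kilobase, and Rdh9, Aldh1a3, Dhrs9, Aldh1a2 and Stra6 formed an overlapping series from 0.962 down to 0.516 CPM per kilobase. With MC903 the order at the top changed to Crabp2 at 148 ± 12.7, Cyp26b1 at 63.9 ± 8.37 and Rarg at 40.7 ± 0.648 CPM per kilobase, each apart from the next. With MC903 and paeonol, Crabp2 at 64.3 ± 15.4 and Rarg at 51.9 ± 1.85 CPM per kilobase overlapped again, above Cyp26b1 at 27.8 ± 4.28 CPM per kilobase. Rdh10 kept the fourth place in all 3 groups. This order holds for the chosen genes and not for the pathway as a whole. Outside them, the oxidoreductases Sdr16c6 and Sdr16c5 were at 144 and 83.0 CPM per kilobase in control ears. Crabp1 and Rara were at 6.43 and 6.26 CPM per kilobase there. Fabp5 and Rxra, which also bind or sense, were abundant at 135 and 36.7 CPM per kilobase.

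**Figure D1:**
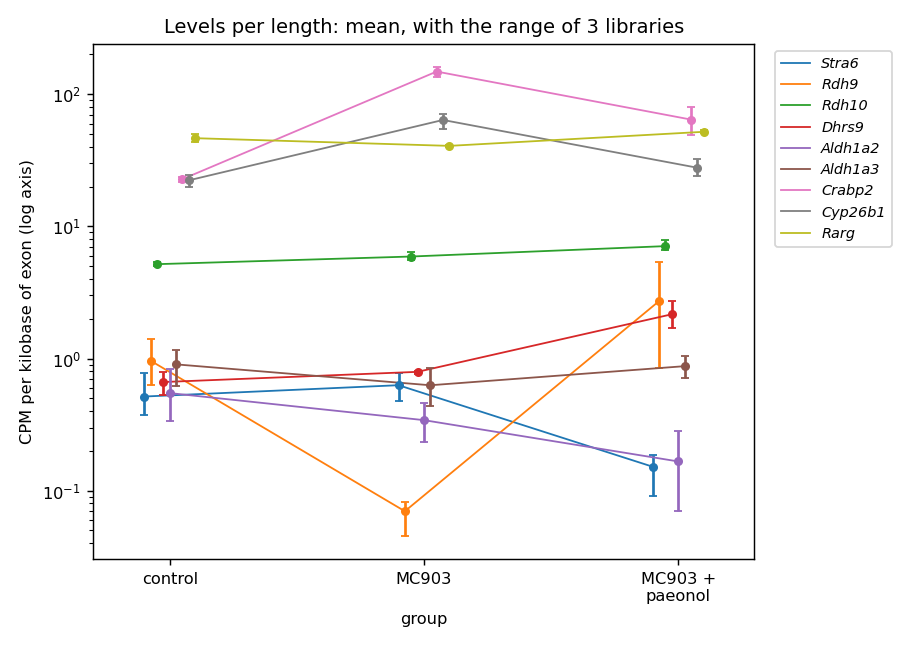
Mean level of each of the 9 genes per kilobase of exon on a log axis in the 3 groups, with bars from the lowest to the highest of 3 libraries; lines join the means of a gene. Crabp2 lies above Rarg without overlap in the MC903 group, and Rdh9 falls to the bottom there at 0.0699 CPM per kilobase.

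MC903 versus control called 4 of the 9 genes: Crabp2 and Cyp26b1 rose, and Rdh9 and Rarg fell. Of all genes tested, 46.8% were called in this comparison, so 4 of 9 is close to the background. In 5 of the 9 genes the libraries of the 2 groups did not overlap, against 58.1% of all genes. The median absolute log2 change of the 9 genes was 0.52, beside 0.49 over all genes tested. MC903 with paeonol versus MC903 called 6 of the 9, beside 29.7% of all genes: Rdh9, Dhrs9 and Rarg rose, and Stra6, Crabp2 and Cyp26b1 fell. In 7 of the 9 the libraries did not overlap, beside 43.9% of all genes, and the median absolute log2 change was 1.20 beside 0.33. MC903 with paeonol versus control called 5 of the 9, beside 30.9% of all genes: Rdh10, Dhrs9 and Crabp2 were higher, and Stra6 and Aldh1a2 lower. Here 6 of the 9 did not overlap, beside 46.4% of all genes, and the median absolute log2 change was 1.50 beside 0.35. The 3 comparisons use the same 3 groups in pairs and therefore share libraries. The 9 genes and the lists below were chosen with earlier results of these data known. An excess over the share of all genes is therefore no independent support for them.

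**Figure D2:**
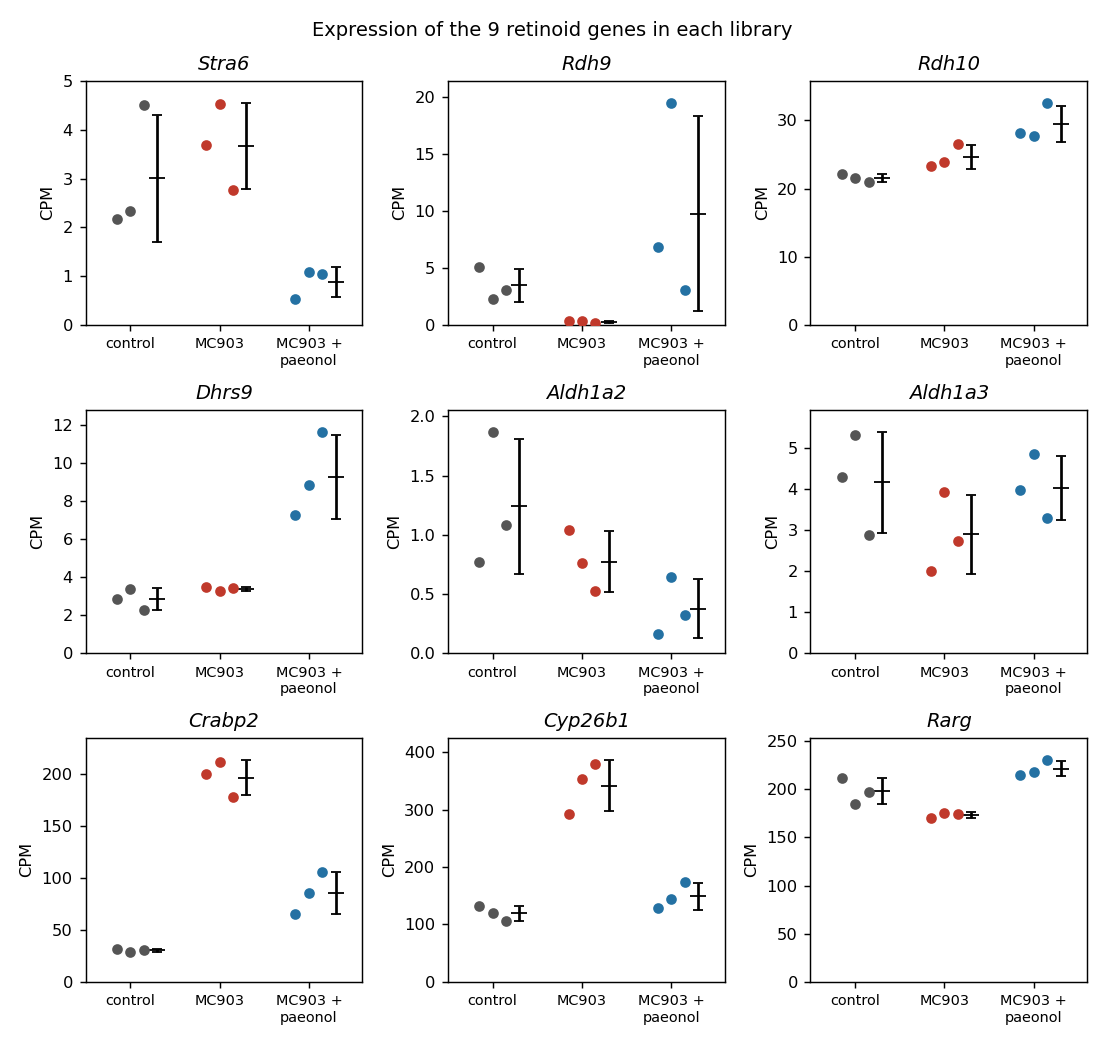
Level in CPM of each of the 9 genes in every library, 1 panel a gene, points for libraries 1 to 3 from left to right, with the mean and SD beside them. Crabp2 and Cyp26b1 stand above control in all 3 MC903 libraries, while Stra6 is low and Dhrs9 high in all 3 libraries with paeonol.

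**Figure D3:**
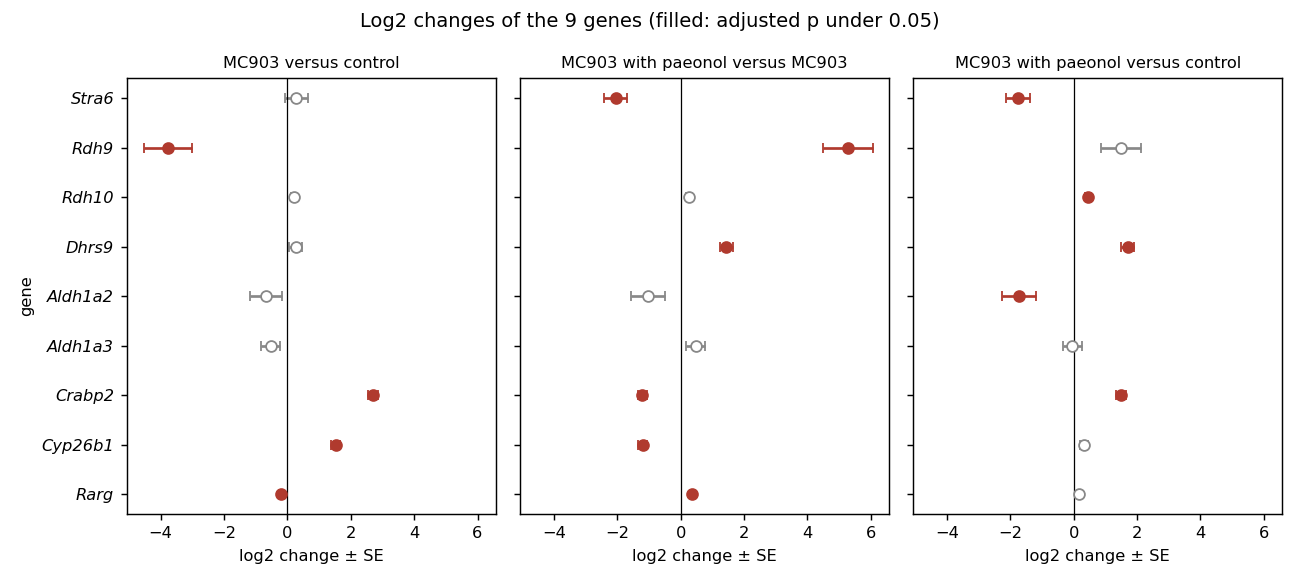
Log2 change with its standard error for the 9 genes in the 3 comparisons, filled where the adjusted p is under 0.05. Crabp2 and Cyp26b1 lie right of zero with MC903 and left of it when paeonol is added, and Rdh9 and Rarg lie the other way round.

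Stra6, the membrane receptor that takes up retinol from its plasma carrier, did not pass the test with MC903 alone and was low in every library with paeonol. The gene (ENSMUSG00000032327, GRCm38 chr9:58063788-58153996, plus strand, 24 exon blocks) stood at 2.18, 2.33 and 4.51 CPM in control ears, 3.70, 4.53 and 2.76 CPM with MC903, and 0.530, 1.09 and 1.04 CPM with MC903 and paeonol. Control replicate 3 lay within the range of the MC903 libraries, and the 3 paeonol libraries lay below all others. The level with paeonol was 4.14-fold lower than with MC903 (log2 change -2.05 ± 0.37, adjusted p 0.00164) and 3.40-fold lower than in control (-1.76 ± 0.37, adjusted p 0.00402). The change with MC903 alone was 0.29 ± 0.35 (adjusted p 0.542). Macrophage and endothelial markers were lowest with paeonol as well. In control, with MC903 and with paeonol, 8 macrophage genes summed to 958 to 1037, 1663 to 1880 and 510 to 826 CPM. For 6 endothelial genes the sums were 233 to 273, 250 to 281 and 127 to 178 CPM, with control and MC903 overlapping. All 8 macrophage genes were called higher with MC903 and lower when paeonol was added, 2 endothelial genes were called lower with MC903 and all 6 lower when paeonol was added, and no gene of either list was at 0 in any library. Their part in the Stra6 result was not tested.

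Carriers of retinol moved in both directions with MC903. Of the 7 other genes of retinol uptake and transport tested, 4 rose and 1 fell, where 23% of all genes were called higher and 23.8% lower. One of the 4, Ttr, passed the filter on low counts through the MC903 libraries alone and so had to differ. Rbp2, a cytosolic retinol carrier best known from the intestine, went from 5.58 ± 1.46 to 114 ± 11.97 CPM (SD, n = 3; log2 change 4.35 ± 0.25, adjusted p 3.90e-06). Rbp7, a related carrier, rose by 1.59 ± 0.31 on the log2 scale (adjusted p 0.00136). The plasma carrier Rbp4 fell by 1.50 ± 0.18 (adjusted p 4.44e-05). Ttr, the plasma partner of Rbp4 and named here after its values were seen, was listed at 0 in all 3 control libraries and at 29 to 40 estimated counts with MC903.

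When paeonol was added, 1 of the 7 carriers rose and 3 fell, beside 15.3% of all genes called higher and 14.3% lower. Rbp2 fell by 0.93 ± 0.22 on the log2 scale (adjusted p 0.0132) and Scarb1, a lipoprotein and carotenoid receptor, by 0.78 ± 0.13 (adjusted p 0.00135). Rbp4 rose by 0.60 ± 0.18 (adjusted p 0.028). That Rbp4 call was lost without MC903 replicate 1, 2 or 3 (adjusted p 0.0549, 0.0777 and 0.075) and without MC903_paeonol replicate 1 (0.106). Against control, Rbp2 at 3.42 ± 0.24 and Rbp7 at 1.96 ± 0.31 were higher on the log2 scale (adjusted p 5.77e-05 and 0.000809), while Rbp4 at -0.91 ± 0.18 and Scarb1 at -0.70 ± 0.13 were lower (adjusted p 0.00286 and 0.00273); 16.3% of all genes were called higher in that comparison and 14.5% lower.

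Storage was marked by Lrat, the enzyme that esterifies retinol. Lrat stood at 1.84 to 2.87 CPM in control, 87.1 to 110.2 CPM with MC903 and 14.8 to 45.6 CPM with paeonol, without overlap between any of the groups. The mean was 44.5-fold higher with MC903 than in control (log2 change 5.48 ± 0.48, adjusted p 8.03e-05), 3.57-fold lower when paeonol was added (-1.84 ± 0.39, adjusted p 0.0117) and still 12.5-fold above control with paeonol (3.64 ± 0.45, adjusted p 0.00113). Of the 5 genes of ester and carotenoid metabolism tested, 2 rose and 1 fell with MC903, 1 rose and 1 fell when paeonol was added, and 1 was higher and none lower than control with paeonol. Over all genes 46.8%, 29.7% and 30.9% were called in these comparisons, so the list as a whole was near that background. Dgat1, an acyltransferase that can also esterify retinol, rose by 0.44 ± 0.12 on the log2 scale with MC903 (adjusted p 0.0133), a call lost without MC903 replicate 1 (adjusted p 0.0512). Bco1, which cleaves β-carotene to retinal, had 64 to 94 estimated counts a library in control and 0 to 13 with MC903. Its ratio of MC903 to control was 0.112 (exact Poisson 95% interval 0.0396 to 0.258) and of paeonol to MC903 4.75 (1.94 to 14.0), on counts divided by 4; these intervals cover counting error only. Bco1 was called in both comparisons (adjusted p 0.00385 and 0.0349), the second call being lost without control replicate 1 or 3, MC903 replicate 1 or MC903_paeonol replicate 1 or 3 (adjusted p 0.0526, 0.0544, 0.0599, 0.0579 and 0.0997).

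Rdh10, the main enzyme that oxidises retinol to retinal in the embryo and in many adult tissues, differed by little between groups. The gene (ENSMUSG00000025921, GRCm38 chr1:16105774-16133734, plus strand) stood at 22.2, 21.5 and 20.9 CPM in control, 23.3, 23.9 and 26.6 CPM with MC903 and 28.2, 27.8 and 32.5 CPM with MC903 and paeonol. With TMM factors the 3 groups did not overlap, with control lowest and paeonol highest. These factors were 1.08 to 1.09 in control and 0.942 to 0.957 with MC903. With scaling by library totals alone, the control and MC903 libraries overlap. The ratio of means was 1.37 for paeonol against control (log2 change 0.45 ± 0.09, adjusted p 0.00324). The steps from control to MC903 (0.19 ± 0.09, adjusted p 0.109) and from MC903 to paeonol (0.26 ± 0.09, adjusted p 0.0513) did not pass the test; the latter passed without MC903 replicate 3 (0.32, adjusted p 0.0415).

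Dhrs9, a short-chain dehydrogenase that acts on retinol and on steroids and is found in epithelia, was high in the libraries with paeonol. The gene (ENSMUSG00000027068, GRCm38 chr2:69380445-69404533, plus strand) stood at 2.86, 3.40 and 2.26 CPM in control, 3.46, 3.27 and 3.45 CPM with MC903 and 7.28, 8.85 and 11.6 CPM with paeonol. All 3 paeonol libraries lay above the other 6, while the ranges of control and MC903 overlapped. The paeonol group was 2.73-fold above MC903 (log2 change 1.45 ± 0.22, adjusted p 0.00046) and 3.26-fold above control (1.70 ± 0.22, adjusted p 0.000217), and the change with MC903 alone was 0.26 ± 0.21 (adjusted p 0.361). Differentiated keratinocyte markers had the same arrangement, with 9 genes summing to 8401 to 12430 CPM in control, 7188 to 15495 with MC903 and 31121 to 34506 CPM with paeonol. Of these 9, 2 were called higher and 3 lower with MC903, 7 higher and none lower when paeonol was added, and none was at 0 in any library. Their part in the Dhrs9 result was not tested.

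Rdh9, a member of a mouse cluster of dehydrogenases that act on cis-retinols and on hydroxysteroids, showed the largest changes of the 9 genes in both comparisons with the MC903 group, and its value is uncertain. The gene (ENSMUSG00000056148, GRCm38 chr10:127776386-127792697, plus strand) shares 2302 bases of exon with Rdh16f1 on the same strand, which is 64.1% of its exon length. The coding sequences of both in GENCODE M21 are 951 bases long, are 98.7% identical and differ at 12 bases. All 12 lie within the stretch from base 5 to base 280 of the coding sequence, printed here 5′ to 3′ because only reads over these letters, or over exons outside the overlap, can tell the genes apart; capitals mark the bases that differ.
Rdh9: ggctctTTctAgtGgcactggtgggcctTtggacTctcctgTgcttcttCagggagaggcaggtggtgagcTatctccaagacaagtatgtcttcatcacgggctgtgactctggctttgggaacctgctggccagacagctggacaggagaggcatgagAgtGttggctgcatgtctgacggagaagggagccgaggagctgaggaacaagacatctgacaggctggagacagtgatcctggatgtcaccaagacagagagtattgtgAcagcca
Rdh16f1: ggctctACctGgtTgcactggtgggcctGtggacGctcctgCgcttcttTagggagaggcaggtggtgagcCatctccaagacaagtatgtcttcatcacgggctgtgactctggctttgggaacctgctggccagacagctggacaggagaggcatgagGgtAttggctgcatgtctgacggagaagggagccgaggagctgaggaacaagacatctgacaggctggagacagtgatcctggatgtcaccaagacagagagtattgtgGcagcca
The longest run of identical bases between them is 677. Rdh16, at 96.3%, and Rdh19, at 93.6%, are further near copies of the Rdh9 coding sequence.

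Rdh9 stood at 5.04, 2.28 and 3.04 CPM in control, 0.294, 0.296 and 0.163 CPM with MC903 and 6.80, 19.5 and 3.05 CPM with paeonol. The MC903 libraries, with 9 to 16 estimated counts each, lay below all others, and the paeonol libraries spread so widely that MC903_paeonol replicate 3 fell within the control range. The log2 change was -3.78 ± 0.76 with MC903 (adjusted p 0.00365), 5.27 ± 0.78 when paeonol was added (adjusted p 0.00144) and 1.50 ± 0.62 for paeonol against control (adjusted p 0.11). Without MC903_paeonol replicate 2 the second of these was 4.29 (adjusted p 0.000253), and without MC903_paeonol replicate 3 the last was 1.93 and passed the test (adjusted p 0.017).

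Rdh16f1 held most of the counts of the pair. It stood at 78.7 to 97.9 CPM in control, 9.62 to 23.3 CPM with MC903 and 68.4 to 89.5 CPM with paeonol, and its log2 changes were -2.57 ± 0.33 (adjusted p 0.000536), 2.37 ± 0.33 (adjusted p 0.00159) and -0.20 ± 0.31 (adjusted p 0.69) in the same 3 comparisons. Rdh9 took 6.02, 2.56 and 3.01% of the summed counts in control, 1.25, 2.47 and 1.67% with MC903 and 8.62, 22.1 and 3.29% with paeonol. The share differed most within the paeonol group, where the summed level was even at 78.9, 87.9 and 92.6 CPM. With the counts of both genes added, an alternative chosen after seeing the data, the log2 changes became -2.60 ± 0.31 (adjusted p 0.000358), 2.52 ± 0.31 (adjusted p 0.000916) and -0.079 ± 0.29 (adjusted p 0.877). The fall with MC903 and the rise with paeonol thus held for the sum of the pair. Rdh16f1 makes up most of that sum, so the sum cannot decide on the changes of Rdh9 alone. This covers its fall, its rise and its higher mean with paeonol than in control. Adding all 7 related genes of the cluster gave -2.20, 2.28 and 0.08.

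**Figure D4:**
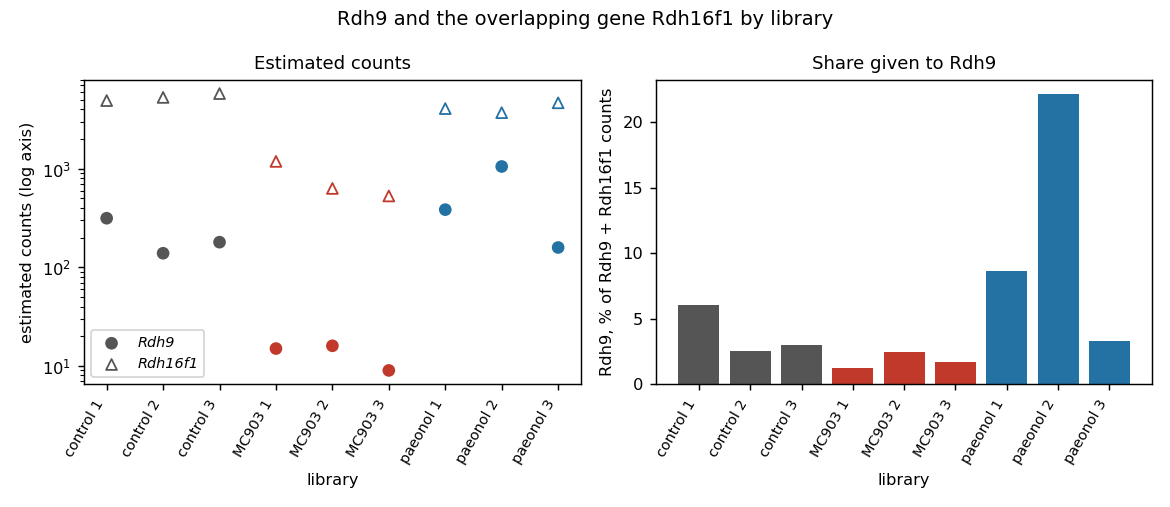
Left, estimated counts of Rdh9 (filled circles) and Rdh16f1 (open triangles) in each library on a log axis; right, the share of their summed counts given to Rdh9. Both genes drop in the MC903 libraries, and the share of Rdh9 ranges from 3.29 to 22.1% among the 3 libraries with paeonol.

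Among the other retinol and retinal oxidoreductases, most calls were downwards with MC903 and upwards when paeonol was added. Of 17 tested, 1 rose and 10 fell with MC903, beside 23% and 23.8% of all genes, and 6 did not pass the test. When paeonol was added 13 rose and 1 fell, beside 15.3% and 14.3%, and 3 did not pass. Against control 4 were higher and 3 lower with paeonol, near the 16.3% and 14.5% of all genes. The list median log2 change was -0.79, 0.95 and 0.23 in these comparisons, beside -0.02, 0.00 and -0.03 over all genes. The exception in the first 2 comparisons was Akr1b8, an aldo-keto reductase that turns retinal back to retinol, which rose by 1.36 ± 0.10 on the log2 scale with MC903 (adjusted p 1.28e-06) and fell by 0.92 ± 0.10 when paeonol was added (adjusted p 4.70e-05). Dhrs3, which also reduces retinal and limits retinoic acid, went the other way, at 60.7 to 65.0 CPM in control, 31.1 to 38.1 CPM with MC903 and 49.9 to 54.5 CPM with paeonol (log2 changes -0.86 ± 0.08 and 0.59 ± 0.08, adjusted p 6.44e-06 and 0.000256). Akr1b8 and Dhrs3 therefore moved in opposite directions. The 17 are not all separate measurements, as Rdh1, Rdh16, Rdh16f1, Rdh16f2 and Rdh19 belong to the cluster of Rdh9. In coding sequence Rdh16f1 is 96.7% identical to Rdh16 and 93.4% to Rdh1, so reads may be split between them. Rdh1 and Rdh16f1 were among the falls with MC903. Rdh1, Rdh16 and Rdh16f1 were among the rises when paeonol was added.

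Of the remaining genes of the list, Rdh11 had a log2 change of -0.88 ± 0.11 with MC903 (adjusted p 7.59e-05) and 0.98 ± 0.11 when paeonol was added (adjusted p 0.0001). Adh7, the class IV alcohol dehydrogenase of epithelia that oxidises retinol, fell by 1.17 ± 0.14 with MC903 (adjusted p 0.00011). Sdr16c5, an epidermal retinol dehydrogenase, rose by 1.07 ± 0.10 when paeonol was added (adjusted p 3.23e-05). With paeonol, Rdh13 (0.47 ± 0.08, adjusted p 0.00177), Akr1b8 (0.43 ± 0.10, adjusted p 0.00567), Rdh12 (0.47 ± 0.11, adjusted p 0.0059) and Sdr16c5 (0.46 ± 0.10, adjusted p 0.00611) were the 4 that were above control on the log2 scale. Dhrs3 was below control with paeonol by a log2 change of -0.28 ± 0.08 (adjusted p 0.0202), a call lost without control replicate 1 or 3 (adjusted p 0.0507 and 0.0748) or MC903_paeonol replicate 1 or 2 (0.0656 and 0.0789). Sebaceous gland markers were lowest with MC903 as well, but stayed below control with paeonol: 12 genes summed to 7413 to 9436 CPM in control, 1248 to 2256 with MC903 and 4517 to 5900 with paeonol. Of the 12, 9 were called lower with MC903 and 8 higher when paeonol was added, and 3 were called lower and none higher in paeonol against control. None of the 12 was at 0 in any library, and their part in the changes of the oxidoreductases was not tested.

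Aldh1a2 and Aldh1a3, which make retinoic acid from retinal, were scarce in all groups, and Aldh1a2 passed a test in 1 comparison. Aldh1a2 (ENSMUSG00000013584, GRCm38 chr9:71215789-71296243, plus strand), the form that supplies the embryo, stood at 0.768, 1.87 and 1.08 CPM in control, 1.04, 0.758 and 0.526 CPM with MC903 and 0.159, 0.646 and 0.326 CPM with paeonol. Each group ran into the next, and only paeonol and control did not overlap. The log2 change was -0.68 ± 0.52 with MC903 (adjusted p 0.313), -1.03 ± 0.54 when paeonol was added (adjusted p 0.182) and -1.71 ± 0.54 for paeonol against control (adjusted p 0.0315). The last call was lost without control replicate 2 or 3 (adjusted p 0.14 and 0.0557) and without MC903_paeonol replicate 1 or 3 (0.0885 and 0.0915), and without MC903_paeonol replicate 2 the change was -2.35 (adjusted p 0.0154). Library counts were 9 to 114. Fibroblast markers were lower in both treated groups, with 7 genes summing to 8382 to 9165 CPM in control, 2787 to 3898 with MC903 and 4104 to 5188 with paeonol. Of these 7, 1 was called higher and 5 lower with MC903, and 3 higher and 1 lower when paeonol was added. In paeonol against control 5 were called lower and none higher. The fibroblast sum was lowest with MC903 and the mean of Aldh1a2 with paeonol, but the Aldh1a2 ranges of both treated groups overlapped. No fibroblast gene was at 0 in any library, and their part in the Aldh1a2 result was not tested.

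Aldh1a3 (ENSMUSG00000015134, GRCm38 chr7:66390890-66427517, minus strand), the form found in the eye and in hair follicle epithelium, overlapped between all groups. It stood at 4.31, 5.33 and 2.87 CPM in control, 2.02, 3.94 and 2.74 CPM with MC903 and 3.97, 4.85 and 3.30 CPM with paeonol. Its log2 changes of -0.52 ± 0.29 (adjusted p 0.172), 0.48 ± 0.30 (adjusted p 0.262) and -0.05 ± 0.29 (adjusted p 0.931) did not pass the test in the 3 comparisons.

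Aldh1a1, the third enzyme of the family and no member of the 9, held most of the measured ALDH1A message. It stood at 37.6 to 40.6 CPM in control, 13.0 to 17.6 CPM with MC903 and 14.4 to 18.1 CPM with paeonol, a log2 change of -1.33 ± 0.12 with MC903 (adjusted p 7.29e-06) and 0.11 ± 0.12 when paeonol was added (adjusted p 0.549). Against control it was lower with paeonol as well, at -1.21 ± 0.12 (adjusted p 6.70e-05). Per kilobase of exon, Aldh1a1 made up 84.7 ± 3.60% of the 3 genes in control, 76.5 ± 1.67% with MC903 and 76.7 ± 3.19% with paeonol (SD, n = 3). Aldh1a3 made up 9.56 ± 2.17, 15.2 ± 4.03 and 19.6 ± 1.22%, and Aldh1a2 5.77 ± 2.20, 8.28 ± 2.44 and 3.68 ± 2.08%. The sum of the 3 was 9.34 ± 0.769 CPM per kilobase in control, 4.12 ± 0.646 with MC903 and 4.45 ± 0.621 with paeonol. The total of the family was thus lower in both treated groups without overlap with control, whose lowest library was at 8.71, against a highest of 5.00 CPM per kilobase in the others. Adipocyte and muscle markers were also lower in both treated groups. The 8 adipocyte genes summed to 426 to 584 CPM in control, 209 to 268 with MC903 and 231 to 266 with paeonol. The 10 skeletal muscle genes summed to 3439 to 5259, 1368 to 1695 and 1706 to 2363 CPM. Against control, 8 adipocyte genes were called lower in each treated group, and 9 and 10 muscle genes, with none higher. Cartilage and Schwann cell sums were lower too. Their part in the ALDH1A sum was not tested.

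Crabp2, which carries retinoic acid to its nuclear receptors, had the smallest p of the 9 genes with MC903. The gene (ENSMUSG00000004885, GRCm38 chr3:87948666-87953376, plus strand, 4 exon blocks) stood at 31.5, 28.5 and 30.3 CPM in control, 199.9, 211 and 178 CPM with MC903 and 64.8, 84.8 and 105 CPM with paeonol. None of the groups overlapped, with paeonol between the other two. The mean was 6.52-fold higher with MC903 than in control (log2 change 2.70 ± 0.16, adjusted p 1.54e-06) and 2.31-fold lower when paeonol was added (-1.21 ± 0.15, adjusted p 0.000344). With paeonol it was still 2.82-fold above control (1.50 ± 0.15, adjusted p 0.000152).

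The other binding proteins divided. Fabp5, the epidermal fatty acid binding protein that can carry retinoic acid to PPARδ, stood at 422 to 545 CPM in control, 3973 to 4828 CPM with MC903 and 1296 to 2218 CPM with paeonol. Like Crabp2 it lay highest with MC903 and between the others with paeonol, with log2 changes of 3.20 ± 0.20 (adjusted p 4.47e-06), -1.37 ± 0.19 (adjusted p 0.000855) and 1.83 ± 0.19 (adjusted p 0.000257). Crabp1, the paralog of Crabp2 with a coding sequence 70.8% identical to it, was at 4.10 to 5.95 CPM in control, 2.86 to 3.60 CPM with MC903 and 1.81 to 3.64 CPM with paeonol. It was called lower with MC903 (log2 change -0.69 ± 0.26, adjusted p 0.0478) and with paeonol against control (-0.95 ± 0.26, adjusted p 0.0177), and did not pass when paeonol was added (-0.26 ± 0.26, adjusted p 0.528). The first of these calls was lost without control replicate 2 or 3 (adjusted p 0.146 and 0.116), MC903 replicate 1, 2 or 3 (0.131, 0.0628 and 0.112) or MC903_paeonol replicate 3 (0.0562). The second was lost without control replicate 2 or 3 (0.0656 and 0.055) or MC903_paeonol replicate 2 or 3 (0.0637 and 0.0548).

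Cyp26b1, the hydroxylase that clears retinoic acid in skin and many other tissues, rose with MC903 and fell when paeonol was added, as Crabp2 did. The gene (ENSMUSG00000063415, GRCm38 chr6:84571414-84593908, minus strand, 9 exon blocks) stood at 131, 120.3 and 106 CPM in control, 292, 354 and 379 CPM with MC903 and 128, 144 and 174 CPM with paeonol. The MC903 libraries were above all others, while the paeonol and control ranges overlapped. The mean was 2.86-fold higher with MC903 (log2 change 1.52 ± 0.13, adjusted p 9.36e-06) and 2.30-fold lower when paeonol was added (-1.20 ± 0.13, adjusted p 0.000113). Paeonol against control gave 0.32 ± 0.13 (adjusted p 0.0927), which passed the test without MC903_paeonol replicate 1 (0.43, adjusted p 0.0336). Cyp26a1, the family member that retinoic acid induces most directly, did not pass in any comparison: it stood at 4.79, 9.92 and 2.60 CPM in control, 6.13, 4.40 and 3.25 CPM with MC903 and 6.06, 6.07 and 7.00 CPM with paeonol. Its log2 changes were -0.33 ± 0.42 (adjusted p 0.562), 0.47 ± 0.42 (adjusted p 0.461) and 0.14 ± 0.42 (adjusted p 0.84), with control replicate 2 the highest and control replicate 3 the lowest of the 9 libraries.

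Stress keratinocyte markers had the same order of groups as Crabp2, Cyp26b1, Lrat and Fabp5. The 7 genes summed to 662 to 1600 CPM in control, 20927 to 22809 with MC903 and 5353 to 9577 with paeonol. Of these, 5 were called higher and none lower with MC903, 4 lower and none higher when paeonol was added, and none was at 0 in any library. Their part in the changes of these retinoid genes was not tested.

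Rarg, the retinoic acid receptor that predominates in epidermis, changed by small amounts. The gene (ENSMUSG00000001288, GRCm38 chr15:102234938-102257517, minus strand) stood at 212, 185 and 197 CPM in control, 170.1, 175 and 174 CPM with MC903 and 215, 218 and 230.3 CPM with paeonol. The 3 groups did not overlap, with MC903 lowest and paeonol highest. The level was 1.14-fold lower with MC903 than in control (log2 change -0.19 ± 0.06, adjusted p 0.0232) and 1.28-fold higher when paeonol was added (0.35 ± 0.06, adjusted p 0.0013). The fall with MC903 was no longer called without control replicate 1 or 3 (adjusted p 0.0981 and 0.0544) or MC903 replicate 1, 2 or 3 (0.0679, 0.0501 and 0.0554). Paeonol against control gave 0.16 ± 0.06 (adjusted p 0.0714), which passed without control replicate 1 (0.21, adjusted p 0.0318) and was -0.00287 with scaling by library totals alone.

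Of the 5 other receptors, 4 fell and none rose with MC903, 1 rose and none fell when paeonol was added, and 2 were lower and none higher than control with paeonol. Over all genes 23.8% were called lower with MC903, 15.3% higher when paeonol was added and 14.5% lower against control. Rxra, the usual partner of RARs in skin, stood at 189 to 218 CPM in control, 131 to 150.4 CPM with MC903 and 197 to 229 CPM with paeonol (log2 changes -0.52 ± 0.08 and 0.62 ± 0.08, adjusted p 0.000283 and 0.000205). Paeonol against control gave 0.10 ± 0.08 for Rxra (adjusted p 0.387), or -0.060 with scaling by library totals alone. Rara was lower than control in both treated groups, at -0.30 ± 0.10 with MC903 (adjusted p 0.0247) and -0.39 ± 0.10 with paeonol (adjusted p 0.0107), and was at -0.09 ± 0.10 between them (adjusted p 0.562). The first of these calls was lost without control replicate 1 (adjusted p 0.113) or MC903 replicate 2 or 3 (0.0742 and 0.0591). Rxrg was lower too, at -1.09 ± 0.28 with MC903 (adjusted p 0.00735) and -0.87 ± 0.28 with paeonol (adjusted p 0.0349), the latter being lost without control replicate 2 or 3 (0.155 and 0.0866) or MC903_paeonol replicate 1 or 3 (0.093 and 0.107).

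Rarb, the receptor gene that retinoic acid induces through an element in its own promoter, was scarce. It had 30 to 34 estimated counts a library in control, 4 to 14 with MC903 and 13 to 26 with paeonol. The ratio of MC903 to control was 0.285 (exact Poisson 95% interval 0.0952 to 0.715 on counts divided by 4, counting error only; adjusted p 0.0437). That call was lost without any 1 library other than MC903 replicate 3, at adjusted p 0.1, 0.0925 and 0.0866 for control replicates 1 to 3, 0.0954 and 0.122 for MC903 replicates 1 and 2, and 0.0504, 0.0597 and 0.0578 for MC903_paeonol replicates 1 to 3. When paeonol was added the log2 change was 1.14 ± 0.63 (adjusted p 0.205), and paeonol against control gave -0.55 ± 0.59 (adjusted p 0.541).

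Promoter windows were searched for classical receptor elements next to the start of each gene. RAR and RXR bind direct repeats of a hexamer spaced by 2 or 5 bases, called DR2 and DR5, and the vitamin D receptor, the target of MC903, binds with RXR to repeats spaced by 3 bases, DR3. The consensus hexamer AGGTCA and its variants AGTTCA and also GGGTCA and also GGTTCA were searched on both strands, overlapping matches included, in RefSeq windows of GRCm38.p6 from 250 bases before to 50 after a start. For 53 windows of 37 other pathway genes, a DR5 was found in 2 and a DR2 or DR3 in none. Of all 32851 windows of this length 0.0974% hold a DR5, 0.268% a DR2 and 0.0396% a DR3. Windows were given for 6 of the 9 members, 10 in all: Stra6, Rdh9, Dhrs9, Aldh1a2, Cyp26b1 and Rarg; Rdh10, Aldh1a3 and Crabp2 were not matched. None of the 10 windows held a DR2, DR3 or DR5. The 250 bases before the start are printed 5′ to 3′ on the strand of the gene for the 2 genes with a DR5, as their elements are the reference for the family, and for the abundant members Cyp26b1 and Rarg. Capitals mark the DR5, which in Cyp26a1 reads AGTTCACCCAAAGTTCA on the other strand, or in Rarg the reverse complement of AGGTCA. The positions are chr14:16575477-16575726 on the minus strand for Rarb, chr19:37697558-37697807 on the plus strand for Cyp26a1, chr6:84593811-84594060 on the minus strand for Cyp26b1 and chr15:102257523-102257772 on the minus strand for Rarg.
Rarb: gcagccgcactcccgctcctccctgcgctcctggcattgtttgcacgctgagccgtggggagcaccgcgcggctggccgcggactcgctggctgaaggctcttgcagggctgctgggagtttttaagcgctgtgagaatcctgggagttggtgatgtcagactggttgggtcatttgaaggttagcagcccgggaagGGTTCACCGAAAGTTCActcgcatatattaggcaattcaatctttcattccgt
Cyp26a1: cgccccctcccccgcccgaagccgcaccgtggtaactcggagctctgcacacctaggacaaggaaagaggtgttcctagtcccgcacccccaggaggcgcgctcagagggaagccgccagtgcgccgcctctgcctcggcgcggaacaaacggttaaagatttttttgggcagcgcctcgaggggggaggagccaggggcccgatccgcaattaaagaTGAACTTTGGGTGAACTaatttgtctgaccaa
Cyp26b1: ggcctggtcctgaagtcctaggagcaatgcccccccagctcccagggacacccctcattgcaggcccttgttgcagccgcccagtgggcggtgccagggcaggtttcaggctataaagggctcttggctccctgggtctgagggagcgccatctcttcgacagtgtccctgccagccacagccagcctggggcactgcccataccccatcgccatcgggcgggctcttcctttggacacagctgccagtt
Rarg: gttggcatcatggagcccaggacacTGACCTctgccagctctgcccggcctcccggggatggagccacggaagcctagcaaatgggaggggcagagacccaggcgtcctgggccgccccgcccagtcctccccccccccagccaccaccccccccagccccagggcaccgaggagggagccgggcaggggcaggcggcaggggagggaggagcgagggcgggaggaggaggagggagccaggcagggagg
In Rarb the first base of the DR5 is 53 bases before the start. A lone AGGTCA on either strand was found in the windows of Dhrs9, Rdh9 and Rarg, as it was in 16.3% of all windows. A match describes letters only, and elements farther from the start were not searched. Of the 2 genes with a DR5, Cyp26a1 passed no test and Rarb was called lower with MC903, on the low counts given above.

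Reported retinoic acid target genes outside the 9 moved in both directions. Of 11 tested, 4 rose and 4 fell with MC903, 3 rose and 5 fell when paeonol was added, and 1 was higher and 3 lower than control with paeonol. The shares of all genes called higher and lower were 23% and 23.8%, 15.3% and 14.3%, and 16.3% and 14.5% in the same order. The list is not independent of those described above, with which it shares genes such as Rarb, Cyp26a1, Dhrs3 and Lrat. Rarres1, a membrane protein gene named for its response to retinoids, stood at 237 to 286 CPM in control, 38.4 to 64.5 CPM with MC903 and 136 to 232 CPM with paeonol (log2 changes -2.39 ± 0.27 and 1.78 ± 0.26, adjusted p 0.000226 and 0.002). Rarres2, which encodes the chemoattractant chemerin, fell by 1.38 ± 0.14 when paeonol was added (adjusted p 6.60e-05) and lay below control by a log2 change of -0.76 ± 0.14 (adjusted p 0.00228). Tgm2, tissue transglutaminase, was below control with paeonol at -1.11 ± 0.25 (adjusted p 0.0127), a call lost without MC903_paeonol replicate 3 (adjusted p 0.0609). Rarres1 thus lay lowest with MC903, and Rarres2 and Tgm2 lowest with paeonol.

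Over all 50 pathway genes outside the 9, 45 were tested, with the tested genes of the Rdh9 cluster counted singly. With MC903, 10 rose and 20 fell, beside 23% and 23.8% of all genes. When paeonol was added, 18 rose and 9 fell, beside 15.3% and 14.3%. Against control, 8 were higher and 11 lower with paeonol, beside 16.3% and 14.5%. The counts of higher calls with MC903 and against control were near the background. The median log2 change was -0.38, 0.38 and 0.10 in these comparisons. The 5 genes that were not tested for want of counts were Rpe65, Rdh7, Rdh8, Adh4 and Aldh8a1.

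**Figure D5:**
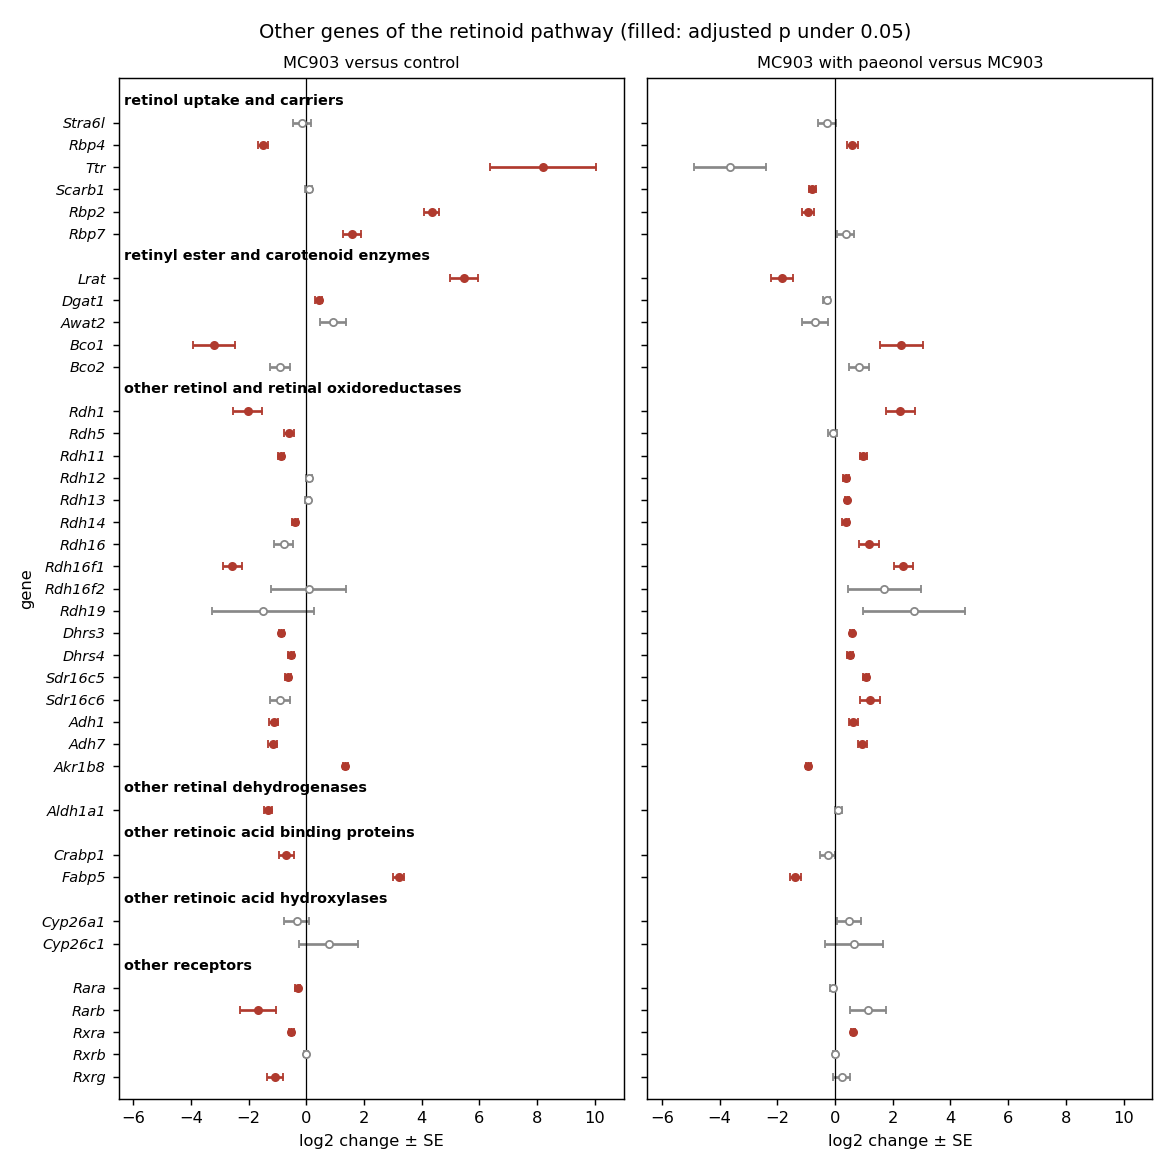
Log2 change with its standard error for tested pathway genes outside the 9, grouped by role, for MC903 versus control (left) and MC903 with paeonol versus MC903 (right), filled where the adjusted p is under 0.05. The oxidoreductases lie mostly left of zero with MC903 and right of it when paeonol is added, while Lrat, Rbp2, Fabp5 and Akr1b8 lie the other way round; the fitted change of Ttr rests on a control group listed at 0 and is no bound.

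The genes whose levels ran most like those of a member were sought among 12345 named genes whose mean log2 CPM was 2 or more, by the root mean square difference of log2 CPM centred on the mean of the 9 libraries. Crabp2 was nearest to Pmaip1 (0.129) and Cwh43 (0.142). Cyp26b1 was nearest to Mat2a (0.111), and Rarg to Wbp2 (0.0396) and Tdrd3 (0.0484). For Rdh10 the nearest were Rbm14 (0.0517) and Nfatc2ip (0.066), and for Dhrs9 Ehf (0.196) and Mybph (0.221). For Aldh1a3 they were Isoc2b (0.215) and Ppp1r35 (0.223). Aldh1a2 was nearest to Tmem47 (0.409) and C7 (0.544), Stra6 to Inmt (0.504) and Fcna (0.506), and Rdh9 to Skint9 (0.770) and Slurp2 (0.839). A gene that differs much between groups or has few counts gives a larger difference on this measure, so the values are not comparable between members.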

How the data were processed

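Messenger RNA of ear tissue was selected with oligo(dT) and its second strand marked with dUTP, per the labels' protocols. The submitters' processing notes name GRCm38, cutadapt, HISAT2 2.0.4 and StringTie 1.3.4d; which step each did, which annotation was used and how strand was set was not stated. The authors deposited whole numbers per gene, treated here as unscaled estimated counts. Among low values multiples of 4 are over-represented (4 itself occurs 1.90 to 2.23 times as often as its neighbours), so intervals were computed on counts divided by 4 and the floor was set at 12 counts per library.

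Symbols were matched through GENCODE M21 for 55141 of 55401 features. All 9 libraries were fitted in edgeR 4.0.16 (R 4.3.3) with TMM factors of 0.942 to 1.09, filterByExpr (minimum count 10, minimum total 15), a robust quasi-likelihood fit and two-sided F tests, with Benjamini-Hochberg adjustment over 21925 genes. The common biological coefficient of variation was 0.214. Standard errors were approximated as the log2 change over the root of F, and the calling was tested on simulated data. On counts divided by 4, the chi-square per degree of freedom between replicates of a group was 6.51 to 14.4, so no library was a copy of another of its group. Libraries of different groups were not compared in this way. Coding sequences were aligned with Biopython 1.88 and figures drawn with matplotlib 3.10.9.

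The 9 genes and all lists were chosen with earlier results of these data known. Named besides the 9 genes were up to 4 called genes with the smallest p of each pathway list and comparison, always Aldh1a1, Crabp1, Cyp26a1, Rara, Rarb and Rxra, the gene that overlaps Rdh9, and the 2 most like genes of each member, apart from a few that are not reported. Alternatives were DESeq2 1.42.0, its size factors, library totals, no filter, a mean CPM of 1, counts divided by 4, fits of 2 groups, the replicate number as a block and each library left out. Replicate numbers did not pair the libraries.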

Additional observations from a re-analysis of the deposited data

How the results depend on the processing

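The counts of genes called and of retinoid genes called stayed within 1.5 times of the values reported under all alternatives run. Leaving out each library in turn gave 9012 to 10376, 5065 to 6328 and 5216 to 6710 genes called in the 3 comparisons, and 3 to 4, 6 to 7 and 4 to 6 of the 9 retinoid genes. Same-numbered libraries correlated at -0.0113 to 0.0400, 0 of 9 pairs reached 0.1 and 3 of the 9 libraries had their highest correlation with a library of their own number, so the numbers were not taken as pairs. With a replicate block in the fit, 10104, 6348 and 6673 genes were called, and 4, 6 and 5 of the retinoid genes. The block changed no call of the 9 genes and ended those of Rarb (adjusted p 0.0557) and Crabp1 (0.0764) in MC903 versus control.

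For the 9 genes, 228 of 243 changes with a library left out and 210 of 219 under other settings kept direction and side of the threshold. For the named pathway genes these were 516 of 558 and 477 of 488. The counts with a library left out include libraries of the group outside a comparison. The 219 include the sums of Rdh9 with related genes, which mostly describe those genes. They leave out Aldh1a2 at a mean CPM of 1, a filter that removed it along with its call in paeonol against control. All counts include changes that were never called, so they do not measure how firm the calls were. Rdh10 in MC903 with paeonol versus MC903 passed with DESeq2 (adjusted p 0.0354), library totals (0.0324), a mean CPM of 1 (0.0455) and counts divided by 4 (0.0488). DESeq2 also called Cyp26b1 (0.0392) and Rarg (0.0384) in paeonol against control, where a mean CPM of 1 called Rarg too (0.0487). Reversed directions, none of them called, were 0.31 for Cyp26a1 in MC903 versus control without control replicate 2 (range -0.68 to 0.31 over the libraries left out), and in paeonol against control -0.21 for Cyp26a1 without control replicate 3 (range -0.21 to 0.79), 0.17 and 0.082 for Aldh1a3 without control replicate 2 and without MC903_paeonol replicate 3 (range -0.25 to 0.17), -0.079 for Rdh9 with Rdh16f1 added, and -0.0029, -0.023 and -0.060 for Rarg, Cyp26a1 and Rxra with library totals. Rbp4 and Bco1 lost their calls when paeonol was added in a fit of 2 groups (0.0644 and 0.0818), and Dgat1 with MC903 (0.0958) and Akr1b8 in paeonol against control (0.0554) with library totals. Without a filter, Rarb (0.0654) and Crabp1 (0.0554) lost theirs in MC903 versus control, and Crabp1 also with the size factors of DESeq2 (0.05004). The causes were not tested, and the value for Rdh9 with Rdh16f1 added mostly describes Rdh16f1. With AGGTCA as the only hexamer, 0 pathway windows held a direct repeat. Counts of 4 to 34 for Rarb over all libraries and of 0 to 13 for Bco1 with MC903 limit what can be said of these genes.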
